A study of Mus musculus with 12 samples.

Results

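The genes described here are 29 named erythroid genes, chosen by symbol: 7 globins, 9 genes of heme synthesis and its mitochondrial carriers, 6 red cell membrane genes, 4 genes of nuclear regulation and 3 genes for erythropoietin signaling, iron uptake and oxygen release. Of these, 28 were found among the 21563 genes of the authors' comparison table, and all 28 were among the 14909 genes with a mean normalized count of at least 5 that were tested. Epb42, which encodes the membrane protein 4.2, had no row there under its symbol or gene identifier and was followed in a shallower table of raw counts.

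Both groups came from wild-type (WT) CD1 mouse embryos, an outbred strain, at E10.0, with no transgene or treatment named for either. Poly-A RNA was sequenced from 6 libraries of the heart tube (HT), which holds the differentiating heart muscle, and 6 of the posterior second heart field (pSHF), the mesoderm behind it that supplies cells to the atria. Per the labels, the HT and pSHF of an embryo were dissected together and frozen, with no sorting step named. Whether a library holds 1 embryo or several is not stated in the labels, and p-values therefore rest on the spread from library to library, which may be technical in part.

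At this stage of mouse development the red cells in the bloodstream belong mainly to the primitive lineage, which arises in the yolk sac, enters the circulation once the heart beats and matures there while still nucleated. Primitive cells use embryonic globins (zeta from Hba-x, epsilon-y from Hbb-y, beta-h1 from Hbb-bh1) together with the alpha globins Hba-a1 and Hba-a2, whereas definitive cells of the fetal liver use the adult beta globins. Each globin chain holds a heme, made in steps shared between mitochondrion and cytosol, and GATA1 and KLF1 are transcription factors that drive the globin, heme and membrane genes in red cells.

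The tissues matched their labels: all 6 heart muscle markers (Myh6, Myh7, Tnnt2, Actc1, Nkx2-5, Myl7) were higher in HT and all 6 posterior second heart field markers (Osr1, Foxf1, Gli1, Isl1, Tbx5, Hoxb1) were higher in pSHF by limma. Normalized counts summed to 24136600 to 25035000 per HT library and to 20552700 to 20787000 per pSHF library. Of all genes tested 78.3% differed, 5708 of them called higher in HT and 5968 in pSHF, and with every library brought to an equal total the split was 3924 to 8160 while the median log2 fold change moved from -0.02 to -0.26. In a bulk sample, fewer cells of a type and less RNA per cell cannot be told apart, and this holds for every level below.

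Every one of the 28 measured erythroid genes was higher in HT than in pSHF (limma on log2 of the normalized count plus 1, Benjamini-Hochberg adjusted over all genes, threshold 0.05), and none was higher in pSHF. The share of all tested genes called higher in HT was 38.3%, and the share called higher in pSHF was 40%. The difference exceeded 2-fold in 26 members, against 13.4% of all genes, and 4-fold in 21 members, against 4.9%. In 27 members every HT library lay above every pSHF library, which held for 30.1% of all genes. The median log2 fold change of the members was 2.62, beside -0.02 over all genes tested, and single members ranged from 0.61 for Slc25a38 to 3.17 for Hbb-bh1. With equal library totals all 28 were still higher in HT, where 26.3% of all genes were, and in the authors' deposited table all 28 had an adjusted p under 0.05 in that direction, beside 31.7% of its genes.

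**Figure D1:**
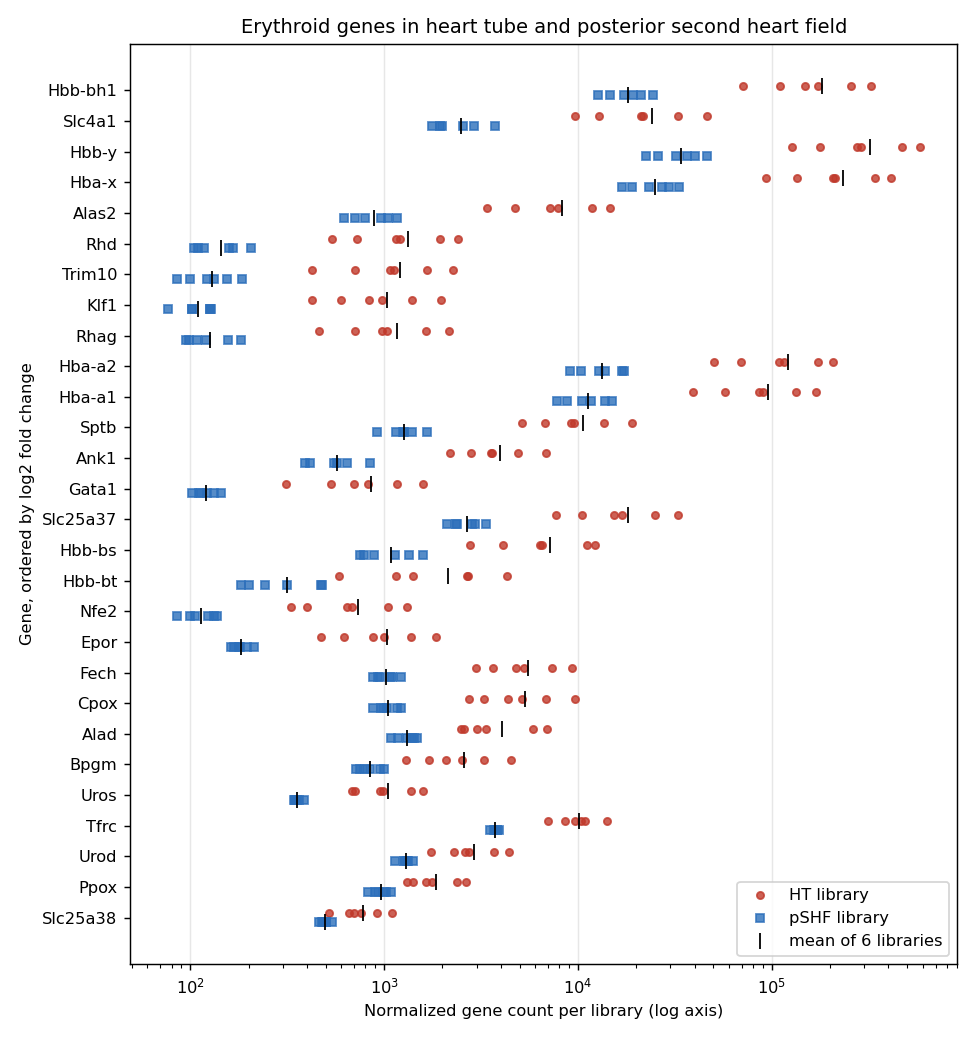
Normalized gene counts (log axis) of the 28 measured members in each of 6 HT libraries (circles) and 6 pSHF libraries (squares), with a tick at each mean and genes ordered by log2 fold change. Circles and squares are separated in 27 genes and meet in Slc25a38, and HT libraries are more widely spread than pSHF libraries.

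Members differed in the size of the difference between tissues. They were divided by textbook knowledge into 16 measured genes that are largely restricted to red cells and their precursors and 12 that many cell types use. Restricted genes had log2 fold changes of 2.35 (Epor) to 3.17 (Hbb-bh1), with a median of 3.05. Genes used by many cell types ran from 0.61 (Slc25a38) to 2.94 (Sptb), with a median of 1.50.

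Promoter sequences from RefSeq (GRCm38.p6, 250 bases before to 50 after the first listed start of a gene) were found for 23 of the 29 members. They are shown for 5 genes with large differences and 1 with the smallest, because GATA factors are the best known regulators of these genes. Only the 250 bases before the start are printed, 5′ to 3′ on the gene's strand, and capitals mark each GATA box, spelled AGATAA or TGATAA on either strand.
Hbb-y (chr7:103853208-103853457, - strand): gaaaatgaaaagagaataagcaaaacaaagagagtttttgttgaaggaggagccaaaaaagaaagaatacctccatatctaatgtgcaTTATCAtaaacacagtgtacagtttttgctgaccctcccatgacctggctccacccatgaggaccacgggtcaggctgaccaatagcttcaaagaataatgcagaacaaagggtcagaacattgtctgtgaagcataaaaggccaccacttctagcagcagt
Hba-x (chr11:32276350-32276599, + strand): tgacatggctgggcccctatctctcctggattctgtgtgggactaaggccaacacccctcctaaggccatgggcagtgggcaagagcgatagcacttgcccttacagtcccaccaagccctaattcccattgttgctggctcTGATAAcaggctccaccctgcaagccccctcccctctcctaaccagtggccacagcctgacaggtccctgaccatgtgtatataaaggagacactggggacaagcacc
Hba-a1 (chr11:32283422-32283671, + strand): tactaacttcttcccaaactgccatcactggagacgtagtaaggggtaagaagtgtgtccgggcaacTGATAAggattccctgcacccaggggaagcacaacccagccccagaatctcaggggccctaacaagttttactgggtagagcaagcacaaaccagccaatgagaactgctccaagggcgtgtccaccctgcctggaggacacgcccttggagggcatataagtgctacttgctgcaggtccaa
Alas2 (chrX:150547167-150547416, + strand): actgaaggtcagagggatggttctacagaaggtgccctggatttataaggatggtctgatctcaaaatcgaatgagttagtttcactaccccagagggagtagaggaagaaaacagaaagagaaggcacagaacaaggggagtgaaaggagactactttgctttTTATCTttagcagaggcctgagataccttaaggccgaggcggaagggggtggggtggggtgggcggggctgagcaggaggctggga
Klf1 (chr8:84901732-84901981, + strand): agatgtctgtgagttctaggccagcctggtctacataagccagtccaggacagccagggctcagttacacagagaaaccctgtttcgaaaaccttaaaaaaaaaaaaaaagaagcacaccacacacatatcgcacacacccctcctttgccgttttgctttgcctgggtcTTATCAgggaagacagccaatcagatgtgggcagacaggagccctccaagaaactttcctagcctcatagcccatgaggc
Slc25a38 (chr9:120110132-120110381, + strand): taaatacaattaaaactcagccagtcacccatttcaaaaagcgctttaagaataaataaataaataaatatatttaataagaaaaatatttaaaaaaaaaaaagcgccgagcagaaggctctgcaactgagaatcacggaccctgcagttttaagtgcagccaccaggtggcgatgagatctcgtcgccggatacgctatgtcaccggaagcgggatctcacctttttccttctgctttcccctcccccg

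Within the 300-base windows, a GATA box was present in 12 of 14 restricted members with a promoter (all but Hbb-bt and Gata1) and in 1 of 9 members used by many cell types (Cpox), beside 19.0% of 27025 promoters. The box printed in capitals began 162 bases before the start in Hbb-y, 108 in Hba-x, 183 in Hba-a1, 86 in Alas2 and 80 in Klf1. For comparison, CCAAT on either strand occurred in 9 of the 14, 5 of the 9 and 37.9% of all promoters, and TATAAA in 4, 0 and 14.2%. The looser CACCC-type string CCNCNCCC occurred in 7, 9 and 49.1%, and CCACACCC, which is contained in it, in 1, 0 and 3.57%. A match is a string of letters and not a measured binding site, and the strings overlap in places. Only the first listed start of each gene was read, so boxes near any other start are not counted in these shares.

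Globins took most of the members' counts. All 28 members together held 1.81 to 7.57% of the normalized counts of an HT library and 0.420 to 0.782% of a pSHF library. The 7 globins alone held 1.60 to 6.82% and 0.337 to 0.667%. Globins made up 89.7 ± 0.9% (SD, n = 6) of the members' counts in HT and 83.5 ± 2.1% in pSHF.

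Hbb-y, the embryonic epsilon-y globin, had 127939 to 580825 normalized counts in HT (median 282673) and 22424 to 46079.8 in pSHF (median 34249). Hbb-bh1, the embryonic beta-h1 globin, had 70967 to 324020 normalized counts in HT (median 161445) and 12666 to 24518 in pSHF (median 18189). Hba-x, the embryonic zeta globin, had 93201 to 411897 normalized counts in HT (median 208833) and 16926 to 33356 in pSHF (median 25219). For all 3 embryonic globins MR25 was the lowest HT library and MR28R the highest, MR15 was the lowest pSHF library and MR18 the highest, and the lowest HT value stood above the highest pSHF value. Their log2 fold changes were 3.10 ± 0.31 (SE; adjusted p = 2.26e-07), 3.17 ± 0.30 (adjusted p = 1.03e-07) and 3.09 ± 0.30 (adjusted p = 1.65e-07) by limma.

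Hba-a1 and Hba-a2, the paired alpha globin genes that serve embryonic and adult cells alike, had log2 fold changes of 2.97 ± 0.29 and 3.05 ± 0.29. Hba-a1 ranged over 39011 to 169234 normalized counts in HT (median 87965) and 7783 to 14940.2 in pSHF (median 11041). Hba-a2 ranged over 50591 to 205926 normalized counts in HT (median 112744) and 9076 to 17271 in pSHF (median 13322). The groups did not overlap in either gene. Of the 50-base stretches in the transcripts of Hba-a1, 72.3% also occurred in Hba-a2, and 89.3% the other way round, so the split of reads between them is uncertain and their sum is the safer quantity.

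Hbb-bs and Hbb-bt are the adult beta globins. Hbb-bs had 2774 to 12219 normalized counts in HT (median 6467) and 747 to 1595 in pSHF (median 1008). Hbb-bt had 587 to 4319.7 normalized counts in HT (median 2048) and 184 to 476 in pSHF (median 279). Their log2 fold changes were 2.61 ± 0.32 and 2.58 ± 0.41 (limma, adjusted p = 2.02e-06 and adjusted p = 3.21e-05), and Hbb-bs was the single member whose highest HT library was MR30. Hbb-bs and Hbb-bt share 53.2% and 58.3% of their 50-base stretches with each other, and the beta globin haplotype of these outbred animals was not analysed here, so the split between them is uncertain too.

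On the scale of normalized counts per kilobase of exon, Hbb-y stood at 505739 ± 273748 in HT and 53489 ± 14080 in pSHF (SD, n = 6), and Hbb-bh1 at 295412 ± 153831 and 29719 ± 7064. On that scale Hbb-y was the highest of the members, and the adult genes were far lower, Hbb-bs at 9357 ± 4892 and 1409 ± 441 and Hbb-bt at 3046 ± 1938 and 447 ± 186. Per length, Hbb-y was 62.0 ± 1.3% of the beta-type level in HT and 62.7 ± 0.9% in pSHF, and Hbb-bh1 was 36.5 ± 1.4% and 35.1 ± 0.7%. The embryonic pair together made up 98.5 ± 0.2% of the beta-type level in HT and 97.8 ± 0.4% in pSHF. Hba-x was 45.2 ± 1.0% of the alpha-type level in HT and 43.9 ± 0.8% in pSHF, and alpha-type genes were 40.5 ± 1.0% and 41.6 ± 0.5% of all globin. Lengths are unions of all annotated exons, which can exceed the transcript in use, so these shares, and the size of their difference between tissues, are approximate.

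Ratios within a library do not depend on the scaling between libraries, and 6 of them were tested between tissues by an exact permutation test (two-sided, 924 arrangements, smallest possible p = 0.00216, adjusted over the 6). None passed an adjusted p of 0.05. The ratio nearest to it set the adult beta globins against the embryonic ones, with means of 0.0185 ± 0.0019 (HT) and 0.0269 ± 0.0053 (pSHF) and a log2 difference of -0.52 (exact permutation p = 0.00866, adjusted p = 0.0519). In single libraries it was 0.0169 to 0.0212 in HT and 0.0198 to 0.0340 in pSHF, so that the groups overlapped in 2 HT libraries, MR26 and MR30, and 1 pSHF library, MR16. This ratio passed the threshold without HT library MR26 (adjusted p = 0.0260), or without pSHF library MR13 (0.0390), MR16 (0.0130) or MR18 (0.0487), each by the same exact permutation test. Liver markers, which mark the organ where definitive red cells form, summed to 13.2 to 980 normalized counts in HT and 450 to 7201 in pSHF, and their part in this ratio was not tested.

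Hba-x to the sum of Hba-a1 and Hba-a2 was 1.07 ± 0.04 in HT and 1.01 ± 0.03 in pSHF (exact permutation p = 0.0325, adjusted p = 0.0649). Alas2 to Hbb-bh1 was 0.0458 ± 0.0019 and 0.0485 ± 0.0015 (exact permutation p = 0.0216, adjusted p = 0.0649). Both ratios passed without HT library MR26 (adjusted exact permutation p = 0.0260 for each) or without pSHF library MR18 (0.0487 for each). Hbb-y to Hbb-bh1 was 1.76 ± 0.10 and 1.85 ± 0.06 (adjusted exact permutation p = 0.143), Klf1 to Hbb-bh1 was 0.00567 ± 0.00030 and 0.00612 ± 0.00061 (0.169, and 0.0487 without pSHF library MR18), and Slc4a1 to Hbb-bh1 was 0.131 ± 0.011 and 0.136 ± 0.015 (0.610). Hbb-bh1 itself was 9.02-fold higher in HT, and these ratios differed between tissues by factors of 0.698 to 1.06, HT over pSHF.

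**Figure D2:**
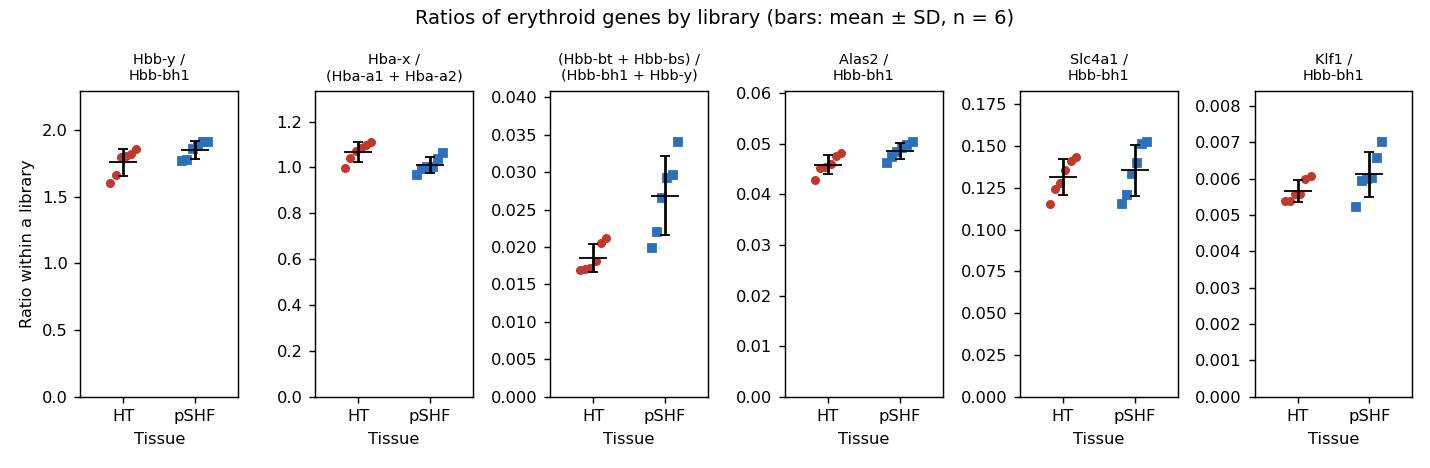
Ratios of normalized counts within a library, in 6 HT libraries (circles) and 6 pSHF libraries (squares), sorted by value, with mean ± SD in black; each panel starts at 0. The adult to embryonic beta globin ratio averages 0.0185 in HT and 0.0269 in pSHF, and the groups overlap in every panel.

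Heme synthesis starts with ALAS, whose red cell form is encoded by Alas2. Alas2 had 3377 to 14673 normalized counts in HT (median 7522) and 623 to 1160.0 in pSHF (median 881), with no overlap and a log2 fold change of 3.09 ± 0.29 (limma, adjusted p = 1.24e-07). Alad, whose enzyme joins pairs of aminolevulinate molecules into porphobilinogen, had 2489 to 6898 normalized counts in HT (median 3187) and 1083 to 1481 in pSHF (median 1349). Its log2 fold change was 1.51 ± 0.22, and it was the single member whose lowest HT library was MR27.

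Uros, which closes the porphyrin ring, had 683 to 1579 normalized counts in HT (median 967) and 341 to 387 in pSHF (median 352), and Urod, which decarboxylates it, had 1744 to 4388 normalized counts in HT (median 2680.0) and 1138 to 1407 in pSHF (median 1301). Their log2 fold changes were 1.48 ± 0.17 and 1.11 ± 0.17. Cpox, the coproporphyrinogen oxidase, had 2730.3 to 9629 normalized counts in HT (median 4768) and 875 to 1224 in pSHF (median 1014) and a larger log2 fold change, 2.23 ± 0.24. Ppox, the protoporphyrinogen oxidase, had 1311 to 2630.4 normalized counts in HT (median 1704) and 827 to 1086 in pSHF (median 967), with a log2 fold change of 0.91 ± 0.15 (adjusted p = 4.29e-05). Fech, ferrochelatase, which inserts the iron in the last step, had 2995 to 9285 normalized counts in HT (median 5030.4) and 871 to 1223 in pSHF (median 1009) and a log2 fold change of 2.34 ± 0.22 (adjusted p = 9.24e-08). The groups did not overlap in any of these enzymes, and the differences along the pathway did not follow its order. In the normalized counts they were largest at the first step and next largest at Fech and Cpox, and smallest at Ppox. In the shallower raw counts (edgeR without a filter) Fech, at 2.86, and Cpox, at 2.10, exceeded Alas2, at 1.12. Ppox, at 0.47, was smallest there too.

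**Figure D3:**
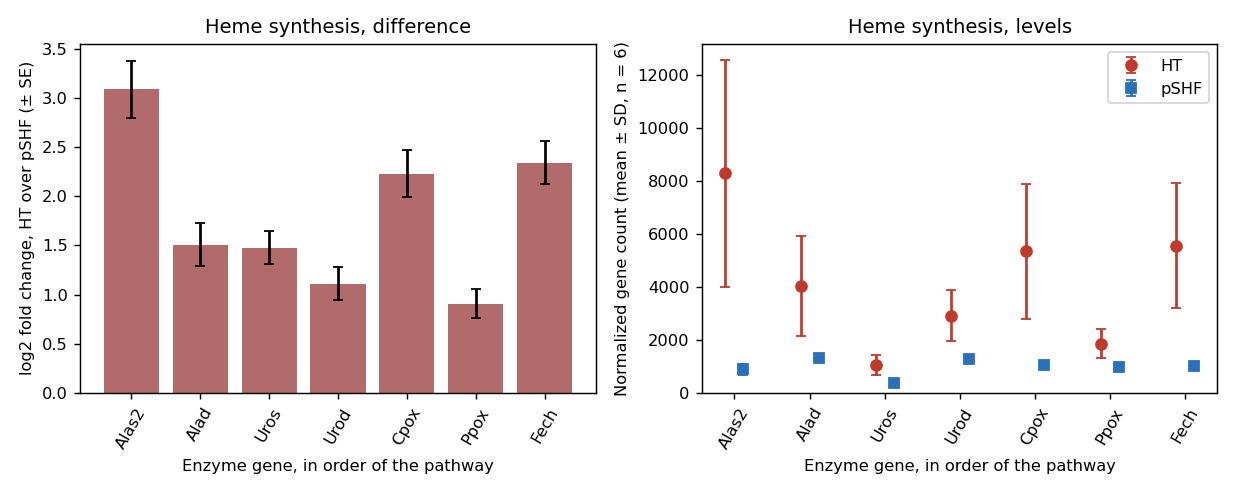
Left, log2 fold change (HT over pSHF, bars ± SE) of 7 heme enzyme genes in pathway order; right, their normalized gene counts in HT (circles) and pSHF (squares) as mean ± SD, n = 6. Alas2 has the largest difference at 3.09 and Ppox the smallest at 0.91, and SDs are wider in HT for every gene.

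Slc25a37, mitoferrin 1, which brings iron into the mitochondrion, had 7689 to 32793 normalized counts in HT (median 16082) and 2117 to 3365 in pSHF (median 2608) and a log2 fold change of 2.61 ± 0.28. Slc25a38, a mitochondrial carrier needed for heme synthesis that is known for glycine transport, had 520.0 to 1097 normalized counts in HT (median 729) and 461 to 539 in pSHF (median 492). It was the single member whose groups overlapped: HT library MR25, at 520.0, lay below pSHF library MR15, at 539. Its log2 fold change of 0.61 ± 0.13 was the smallest of the members and passed the threshold (adjusted p = 0.000733), and with equal library totals it was 0.36, still past it.

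Annotated exons on the opposite strand overlap Alas2 (with Apex2), Cpox (with Gpr15), Ppox (with B4galt3), Slc25a37 (with Gm31748) and Ank1 (with Gm15816) by at least 100 bases. Without knowing whether strand was used in counting, reads of these pairs cannot be told apart there. Apex2, which encodes a DNA repair enzyme, had a log2 fold change of -0.07 (limma adjusted p = 0.351) and B4galt3 of -0.05 (0.367), so neither passed the test.

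Among the membrane genes, Slc4a1, the chloride and bicarbonate exchanger band 3, had 9612 to 46560.1 normalized counts in HT (median 21328) and 1771 to 3738 in pSHF (median 2270.2). Its log2 fold change was 3.13 ± 0.32 (limma, adjusted p = 2.61e-07). Ank1, the ankyrin that ties band 3 to the skeleton, had 2177 to 6834 normalized counts in HT (median 3585) and 389.7 to 843 in pSHF (median 562) and a log2 fold change of 2.76 ± 0.24. Sptb, the beta chain of the spectrin net under the membrane, had 5146 to 19108 normalized counts in HT (median 9378) and 920.3 to 1657 in pSHF (median 1256) and a log2 fold change of 2.94 ± 0.25. All 3 had their lowest HT value in MR25 and their highest in MR28R, and none overlapped with pSHF.

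Rhag and Rhd encode the Rh-associated glycoprotein and the Rh blood group protein, which sit together in the membrane. Rhag had 463 to 2171 normalized counts in HT (median 1008) and 95.2 to 182 in pSHF (median 114). Rhd had 537 to 2398 normalized counts in HT (median 1181) and 105 to 206 in pSHF (median 138). Their log2 fold changes were 3.05 ± 0.30 and 3.06 ± 0.31, closer to each other than either standard error. Epb42, read from the raw counts only, had 28 counts over the 6 HT libraries (2, 1, 3, 11, 4 and 7 in MR25, MR26, MR27, MR28R, MR29 and MR30) and 2 over the 6 pSHF libraries (1 each in MR13 and MR18).

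The genes of nuclear regulation came next. Klf1, the erythroid Krüppel-like factor, had 426 to 1967 normalized counts in HT (median 902) and 76.4 to 128 in pSHF (median 114) and a log2 fold change of 3.05 ± 0.29 (adjusted p = 1.28e-07). Gata1, which acts with FOG1 in red cell and platelet precursors, had 310.4 to 1589.5 normalized counts in HT (median 764) and 102 to 144 in pSHF (median 118), with a log2 fold change of 2.63 ± 0.29. Nfe2, whose protein binds globin control regions as a dimer with a small Maf protein, had 331 to 1311 normalized counts in HT (median 663) and 85.7 to 137 in pSHF (median 115), a log2 fold change of 2.53 ± 0.28. Trim10, a ring finger gene needed for terminal red cell maturation in mouse cells, had 424 to 2255 normalized counts in HT (median 1103) and 85.0 to 185 in pSHF (median 127), with a log2 fold change of 3.06 ± 0.33. The HT libraries ranked alike in all 4 genes, with MR25 lowest and MR28R highest, and none of the 4 overlapped between tissues. Per kilobase of exon their HT means were 673 ± 369.8 for Klf1, 349.9 ± 189 for Gata1, 246 ± 127 for Nfe2 and 539 ± 296 for Trim10, beside 3446 ± 1779 for Alas2.

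Epor, the erythropoietin receptor, had 473 to 1841 normalized counts in HT (median 934) and 162 to 214 in pSHF (median 179) and a log2 fold change of 2.35 ± 0.25. Tfrc, the transferrin receptor through which nearly all dividing cells take up iron, had 6965 to 14064 normalized counts in HT (median 9986) and 3513 to 3911 in pSHF (median 3776), with a log2 fold change of 1.39 ± 0.12. Bpgm, which makes the bisphosphoglycerate that lowers oxygen binding by hemoglobin, had 1304 to 4540.0 normalized counts in HT (median 2312) and 718 to 995 in pSHF (median 823), with a log2 fold change of 1.50 ± 0.23. Tfrc was the steadiest member within pSHF, with a coefficient of variation of 3.67%, and the groups were apart in all 3 genes.

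Levels of the members varied from library to library, most of all in HT. MR25 was the lowest HT library in 27 of 28 members and MR28R the highest in 27. The highest HT library exceeded the lowest by 3.89 to 7.35 times in the restricted members (median 4.50) and by 2.01 to 4.27 times in the others (median 2.94). Within pSHF the same ratio was 1.32 to 2.59 (median 1.93) and 1.11 to 2.16 (median 1.38), with MR15 lowest in 20 members and MR18 highest in 22. The difference in spread between the tissues was not tested, and how often these libraries were lowest or highest among all genes was not computed.

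The rise of each member with Hbb-bh1 was read within each tissue, since the tissues form separate clusters. Within HT all 27 other members correlated with Hbb-bh1 over 6 libraries on the log2 scale. Pearson's r was 0.92 to 0.998 (median 0.99; exact permutation test over 720 pairings, adjusted p = 0.00395 to 0.00972 over the 27). Spearman's rho was 0.943 to 1 (exact permutation, adjusted p = 0.00395 to 0.0167) and was 1 for 19 members. Without MR28R and MR30, the libraries farthest from the median, r was 0.831 to 0.999 over 4 libraries. All values of a library share its scaling and depth, and with the totals of the other genes made equal all 27 still passed. The share of all genes passing the same test was not computed in either tissue. The counts of members passing therefore do not show a trait particular to them.

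What differed between members was the slope. On log2 scales the restricted members had slopes of 0.90 (Epor) to 1.20 (Hbb-bt) per unit of Hbb-bh1, with a median of 1.01, and 14 of 15 exceeded 0.9. Members used by many cell types had slopes of 0.41 (Tfrc) to 0.97 (Slc25a37), with a median of 0.72, and 1 of 12 exceeded 0.9. Gata1 rose with a slope of 1.04 ± 0.03 (SE), Alas2 with 0.99 ± 0.04, Klf1 with 1.00 ± 0.05 and Slc25a37 with 0.97 ± 0.04. By contrast Slc25a38 had 0.45 ± 0.06, Ppox 0.49 ± 0.06 and Tfrc 0.41 ± 0.05.

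**Figure D4:**
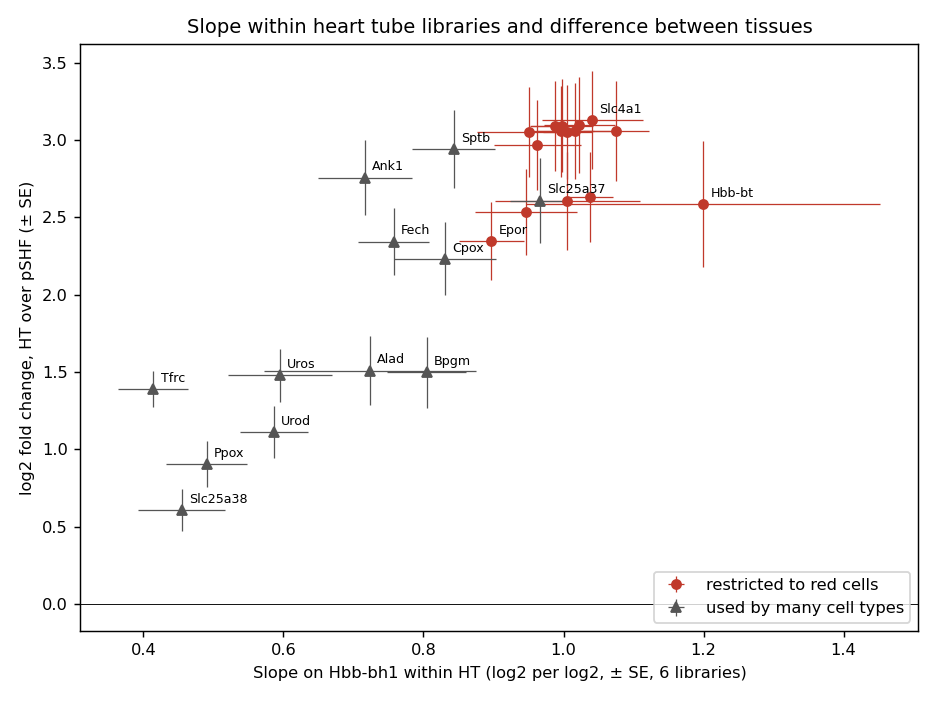
Slope of each member on Hbb-bh1 within the 6 HT libraries (log2 per log2, ± SE) on the horizontal axis and log2 fold change HT over pSHF (± SE) on the vertical axis, for 15 members restricted to red cells (circles) and 12 used by many cell types (triangles). Tfrc, Slc25a38 and Ppox lie at low slope and low fold change, and restricted members lie near a slope of 1; both axes use the same HT libraries and so are not independent.

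On linear scales a straight line through the 6 HT libraries met the axis at a Hbb-bh1 level of 0 more than 2 SE above 0 for 8 of the 12 members used by many cell types (Uros, Urod, Ppox, Fech, Slc25a38, Ank1, Tfrc and Bpgm) and for 0 of the 15 restricted members. The intercept was 56.0 ± 6.8% (SE) of the HT mean for Tfrc, 50.5 ± 5.9% for Slc25a38, 45.2 ± 3.7% for Ppox and 37.2 ± 4.7% for Urod. It was 1.0 ± 2.9% for Alas2 and -3.2 ± 4.5% for Gata1. With 6 libraries 2 SE is a loose limit and not a test. Of the 8, Bpgm at 329 ± 163 and Ank1 at 828 ± 312 normalized counts (SE) were nearest to it.

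How far pSHF lay from a line carried on from the HT libraries depended on the form of the line. The side changed with the form for Alas2, Fech, Uros, Hba-a1 and Hba-a2 only, and the distances were not tested. The mean Hbb-bh1 level of pSHF was 18218, below the lowest HT library at 70967. Every value carried on from a line therefore lies outside the fitted range. For Alas2 the measured pSHF mean was 883, beside 908 from the linear fit and 837 from the log2 fit. For Tfrc it was 3753, beside 6079 and 3956, and for Fech 1023, beside 1473 and 975, so Fech lay below the linear fit and above the log2 fit. Ppox, at 962, was near the linear value of 942 and above the log2 value of 611, and Urod, at 1289, likewise beside 1266 and 766.

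Most members lay above both fits, and Ank1, Sptb and Tfrc lay below both. Some of these are given here. Ank1, at 569, was below 1146 (linear) and 770 (log2), and Sptb, at 1273, was below 1879 and 1509.5. Above both were Hbb-bt, at 314.5 beside 4.31 and 126, Slc4a1, at 2482 beside 665 and 2127, and Alad, at 1312 beside 890 and 757. Trim10, at 130 beside 68.2 and 99.3, Klf1, at 110.2 beside 59.1 and 102, Gata1, at 121 beside 61.1 and 76.4, and Bpgm, at 843 beside 555 and 403, were also above both. The linear values of several of these carry wide errors: the intercepts of Hbb-bt, Slc4a1, Trim10, Klf1 and Gata1 were -235 ± 606, -1954 ± 1922, -59.4 ± 62.1, -49.5 ± 68.2 and -27.5 ± 38.8 (SE).

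**Figure D5:**
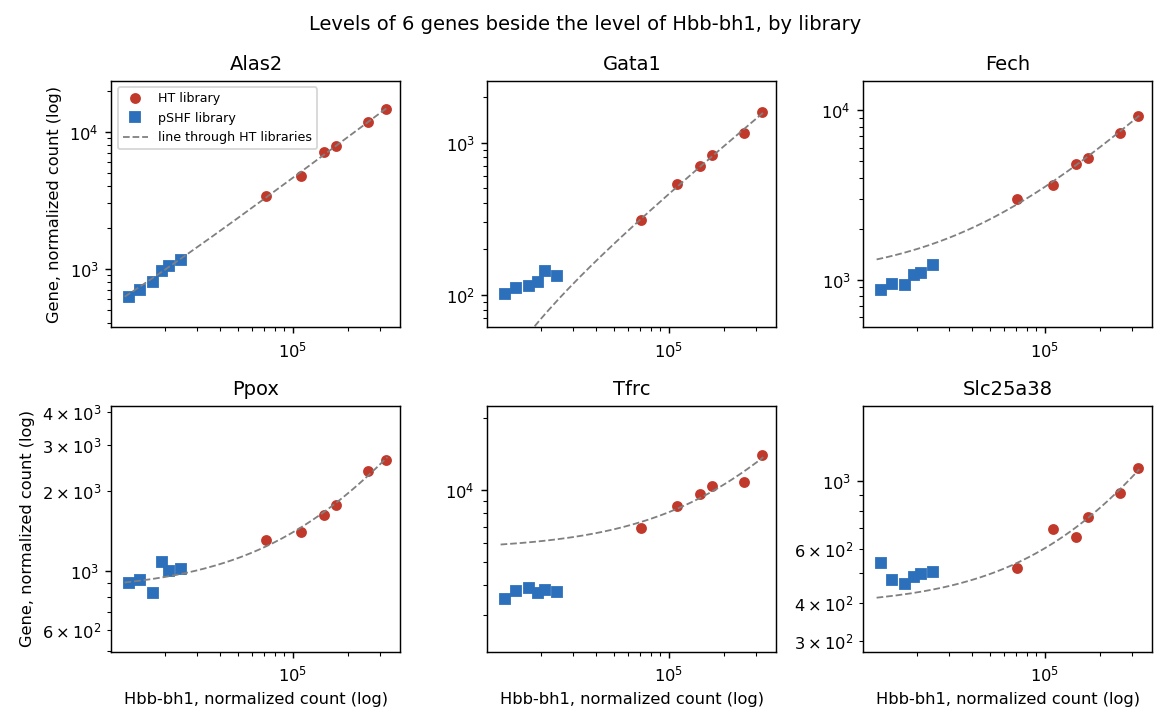
Normalized counts of 6 members against those of Hbb-bh1 in each library (both axes logarithmic), HT as circles and pSHF as squares, with the straight line fitted on linear scales to the HT libraries as dashes. Alas2 and Ppox in pSHF sit at this carried-on line, Tfrc and Fech below it and Gata1 above it; a line fitted on log2 scales places Ppox and Fech above it.

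Within pSHF, where Hbb-bh1 spans 12666 to 24518, 15 of 27 members passed the same exact permutation test of Pearson's r and 14 that of Spearman's rho. The other globins except Hbb-bs were among the 15: r was 0.998 for Hbb-y, 0.996 for Hba-x, 0.994 for Hba-a1, 0.985 for Hba-a2 and 0.891 for Hbb-bt (exact permutation, adjusted p = 0.00625 for the first 4 and 0.0450 for Hbb-bt). Slc25a38 had r = -0.222 and rho = 0.0857 (exact permutation, adjusted p = 0.693 and 0.919), and Tfrc r = 0.455 and rho = 0.257 (0.387 and 0.684). Without MR15 and MR18, the libraries farthest from the median, r fell by more than 0.5 for Hbb-bs, from 0.706 to 0.111, for Uros, from 0.693 to 0.137, and for Tfrc, from 0.455 to -0.144. For Slc25a38 r rose instead, from -0.222 to 0.640, so its low value rested on these libraries.

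The wider pathway was read from lists of further red cell genes. Of 25 other heme and iron genes tested, 20 were higher in HT, 3 were higher in pSHF and 2 did not pass by limma, with a median log2 fold change of 0.83. With equal library totals the counts were 15, 4 and 6. Steap3, the endosomal iron reductase, and Tfr2, a receptor related to Tfrc, had the largest differences, with log2 fold changes of 2.67 ± 0.21 and 2.63 ± 0.28. The iron regulatory genes Aco1 (-0.49 ± 0.04) and Ireb2 (-0.36 ± 0.03) were higher in pSHF.

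The 18 other membrane and cytoskeleton genes had a median of 2.18, with 15 called toward HT and 3 toward pSHF. Tmod1, a tropomodulin also used by heart muscle, had a log2 fold change of 4.02 ± 0.13, whereas Cd24a (-1.07 ± 0.08) and the urea transporter Slc14a1 (-0.76 ± 0.26) were higher in pSHF. Tmod1 varied between HT libraries by a factor of 1.13, beside 3.89 to 7.35 in the members restricted to red cells.

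Transcription factors were mixed: of 19 tested, 11 were higher in HT, 5 in pSHF and 3 did not pass, with a median of 0.30 (9, 7 and 3 with equal library totals). Ikzf1 and Gfi1b, which act in blood precursors, were higher in HT, with log2 fold changes of 2.72 ± 0.34 and 2.68 ± 0.29, while Bcl11a, which silences embryonic globin genes in definitive red cells of mice and also acts in neurons, was lower in HT, with a log2 fold change of -2.47 ± 0.09 and 373 ± 59.7 normalized counts in HT and 2054 ± 158 in pSHF. Runx3 was also lower in HT, with a log2 fold change of -1.65 ± 0.34, but its levels were near the filter on low values. They were 2.69 ± 1.43 normalized counts in HT and 10.2 ± 3.76 in pSHF. The 14 tested enzymes, chaperones and globin-like genes had a median of 1.88 and were all called toward HT, with log2 fold changes from Hemgn at 3.28 ± 0.32 and the red cell pyruvate kinase gene Pklr at 3.19 ± 0.30 down to Cat at 0.47 ± 0.05 and Bnip3l at 0.44 ± 0.05, and 13 of the 14 were called with equal library totals.

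Genes next to the alpha globin locus went either way. Of 6 tested, 2 were higher in HT, 2 in pSHF and 2 did not pass, with a median of -0.08. The log2 fold change of Snrnp25 was 0.36 ± 0.12, that of Nprl3, whose introns hold alpha globin enhancers, 0.26 ± 0.08, that of Polr3k -0.35 ± 0.05 and that of Luc7l -0.57 ± 0.03. With equal library totals these calls changed, to 0 higher in HT, 4 in pSHF and 2 not passed, and Snrnp25 stood at 0.12 and Nprl3 at 0.02 (limma adjusted p = 0.342 and 0.849).

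The table of raw counts, with 233865 to 340434 counts per library, allowed a coarser reading. There 10 members passed edgeR's filter on low counts and all 10 were higher in HT by its quasi-likelihood test (adjusted p under 0.05), beside 25.2% of the 3370 genes tested. Alas2, with 163 counts over the HT libraries and 86 over the pSHF libraries, had a log2 fold change of 1.16 there, and Sptb, with 265 and 101, had 1.64, beside 3.09 and 2.94 from the normalized counts. Without a filter, Rhd, with 44 and 20 counts, had 1.31, and Klf1, with 20 and 9, had 1.28 (edgeR adjusted p = 0.0196 and 0.170), beside 3.06 and 3.05. Nfe2, with 14 and 18 counts, and Epor, with 23 and 24, did not pass (log2 fold changes of -0.16 and 0.15, edgeR adjusted p = 0.904 and 0.884), beside 2.53 and 2.35. Which reads that table counted is not known, and the cause of these gaps was not tested. Hba-x, Hbb-bh1, Hbb-y and Slc4a1, by contrast, had 3.21, 3.40, 3.22 and 3.28 there, close to their values from the normalized counts. In all, 18 of the 25 members with raw counts above 0, Epb42 included, passed without the filter, beside 9.22% of genes called higher in HT. DESeq2 on the same counts called 16 of 25, beside 9.66%. Hbb-bs and Hbb-bt were not found among the raw counts, so the adult to embryonic ratio was not read from them. Hba-a1 and Hba-a2 were at 0 in all 12 libraries of that table, while Hba-x had 3509 and 448 counts, and those 0 counts are not used here.

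Markers of other blood and neighbouring cell types moved in different ways, and their part in the results above was not tested. Summed normalized counts of 7 macrophage markers were 225 to 328 in HT and 864 to 1202 in pSHF, all 7 higher in pSHF. For 7 liver markers the sum was 13.2 to 980 in HT and 450 to 7201 in pSHF, again all 7 higher in pSHF. Afp, the fetal liver protein, stood at 213 ± 341 in HT and 2844 ± 2245 in pSHF, Alb at 15.6 ± 23.0 and 245 ± 210.4, and Ttr at 10.6 ± 6.28 and 46.0 ± 28.0. Of 5 blood progenitor markers tested, 3 were higher in pSHF, 1 was higher in HT and 1 did not pass. Kit had a log2 fold change of -0.64 ± 0.07, Myb one of -1.54 ± 0.12 and Cd34 one of 0.16 ± 0.06 (-0.08 with equal library totals, not past the threshold), and the list summed to 2368 to 2755 in HT and 2478 to 2920 in pSHF.

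Platelet and megakaryocyte markers were higher in HT in 6 of 7 genes, with sums of 1618 to 3618 in HT and 965 to 1516 in pSHF. Their log2 fold changes were 0.85 ± 0.16 for Pf4, 0.88 ± 0.19 for Ppbp and 1.25 ± 0.18 for Itga2b. All 8 markers of endothelium and endocardium were higher in HT, at sums of 23848 to 30194 and 12779 to 14583, with log2 fold changes of Pecam1 at 0.93 ± 0.06, Cdh5 at 0.63 ± 0.05 and Kdr at 0.32 ± 0.06 (0.07 with equal library totals, not past the threshold). The 6 heart muscle markers summed to 554941 to 668594 in HT and 24429 to 53307 in pSHF (log2 fold changes: Myh6 3.22 ± 0.17, Myh7 6.68 ± 0.15, Tnnt2 3.85 ± 0.14), and the 6 posterior second heart field markers to 2441 to 2770 and 9762 to 12113 (Osr1 -5.01 ± 0.18, Foxf1 -7.35 ± 0.31, Gli1 -5.53 ± 0.10). No listed marker was at 0 in all libraries.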

How the data were processed

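Poly-A RNA of 6 HT and 6 pSHF samples had been sequenced as single-end reads of 50 bases from 1 µg of total RNA, per the labels' protocols. The protocol calls these reads stranded although its TruSeq version 2 kit keeps no strand, so whether counting used strand is not known. STAR, DESeq2 and the build mm10 are named in the submitters' processing notes; versions, annotation and counting program were not given in the sources used here.

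A deposited signal for each library (the normalized gene counts of the text) stands in the authors' comparison table, per the file headers, with a log2 fold change, its standard error (log2), a test statistic (a score) and p-values. Whole reads were not recovered from that signal, so its depth is unknown. The raw counts the authors deposited sum to 233865 to 340434 per library and hold only a small part of the depth, which sets their precision; which reads they hold is not known. Columns name a tissue and a library code (MR25 and so on) without a replicate number, and grouping was by tissue alone; 0 columns of values were left unused. A chi-square test of raw counts gave at least 1.336 per degree of freedom in each of 30 pairs of libraries of 1 tissue, so none was treated as a duplicate.

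The main test was limma 3.58.1 (R 4.3.3, trend) on log2(value + 1), a pseudocount of 1, keeping genes whose mean over 12 libraries was 5 or more, with Benjamini-Hochberg adjustment over all 14909 genes and a threshold of 0.05; fold changes on this scale understate low genes. In simulated data of 14909 genes for this comparison 10 unchanged genes were called, and the share of changed genes recovered was 80% at 1.5-fold, 94% at 2-fold and 100% at 4-fold. The simulation gave every gene the same low dispersion and drew genes independently. The members' coefficients of variation in HT were 23.8 to 63.6%, so these rates do not describe the members. Ratios and correlations used exact permutation tests in SciPy 1.17.1. Raw counts were tested with edgeR 4.0.16 (quasi-likelihood) and DESeq2 1.42.0. Alternatives were other pseudocounts, filters, scalings and thresholds, the authors' deposited test, the raw counts and leaving out each library.

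All members are described; from each further list the genes called with the 2 highest and 2 lowest log2 fold changes are named, and from marker lists the first 3 genes. Genes ranked among the 10 most like the globins are named too. A few genes taken by these rules are not reported here. The members, lists and tests were chosen with earlier results of these data known. Gene positions and exon lengths are from GENCODE for GRCm38 (mm10). Mfsd7b and Mfsd7c of the table were read as Flvcr1 and Flvcr2 by gene identifier. Epb41, Ahsp and Adgre1 of the lists had no row in the table; Tspo2, Hbq1a, Hbb-bh2, Car1, Il9r and Flt3 were below the filter on low values.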

Additional observations from a re-analysis of the deposited data

Results flagged for a closer look

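Epb42, whose protein 4.2 links band 3 to ankyrin, is read in no comparison of normalized counts, but the raw counts held 28 of its counts summed over the 6 HT libraries and 2 over the 6 pSHF libraries, which is why it is listed here. In edgeR without a filter on low counts its log2 fold change was 3.56 (adjusted p = 6.09e-05), HT over pSHF, with 1 to 11 counts in every HT library and none in 4 of the 6 pSHF libraries.

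Among 68 sets of 6 values, made of 28 members and 6 ratios in each of 2 tissues, 0 had a lowest or highest library farther from its neighbour than Dixon's critical value allows. By chance about 1 in 20 would.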

How the results depend on the processing

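All 28 members stayed higher in HT, and 0 became higher in pSHF, with a pseudocount of 0.5 or 5, no filter, a mean of at least 50, equal library totals, equal totals of the other genes, recomputed size factors, a threshold of 0.01, the authors' deposited test and each library left out. Genes called in all numbered 11676, 11437 to 11594 with a library left out and 10001 to 12277 under the other settings on normalized counts. Raw counts gave fewer: edgeR with TMM and its filter called 1629 of 3370 genes and 10 of 10 members, with DESeq2 size factors 1632 and 10, without a filter 2889 of 16244 genes and 18 of 25 members (9.22% of genes higher in HT), and DESeq2 2188 of 12244 and 16 of 25 (9.66%). The fold change of Nfe2 turned to -0.16 in edgeR without a filter and -0.16 in DESeq2. Of single-member fold changes under all settings, 640 kept their call, 14 lost it with the same sign and 2, those of Nfe2, lost it with the sign turned, all on raw counts.

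In the main exact permutation test none of the 6 ratios passed, with adjusted p = 0.0519 for adult to embryonic beta globins. Alas2 to Hbb-bh1 and Hba-x to Hba-a1 plus Hba-a2 had adjusted p = 0.0649 each in that test. The adult to embryonic beta globin difference (-0.52) passed with a pseudocount of 1 (-0.52) and with medians (-0.65), ranging from -0.60 to -0.45 with a library left out. Alas2 to Hbb-bh1 passed with medians (-0.096) and ranged from -0.096 to -0.063. Hba-x passed against Hba-a1 alone (0.13) and ranged from 0.065 to 0.097. Klf1 to Hbb-bh1 ranged from -0.15 to -0.067. The cause was not tested for any of these. Correlations with Hbb-bh1 passed in 27 of 27 members in HT and 15 within pSHF, and the share of all genes passing was not computed.

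No paired analysis was possible because the columns carry a tissue and a library code but no replicate number of the labels. Of the 25 members above 0 in the raw table, 15 did not pass edgeR's filter, and some well counted ones had smaller fold changes than in the normalized counts (Alas2 1.16, Sptb 1.64); the cause was not tested. The tissues were compared in 1 series at 1 stage.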

Other observations

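Genes outside the list were ranked by how closely they followed the globins, as Pearson's r between their log2 values and the log2 sum of the 7 globins, both centred within each tissue, over 12 libraries and 12292 candidate genes with a mean of at least 50. Among the closest were Cldn13 (r = 0.989), Hemgn (0.988), Car2, a carbonic anhydrase (0.986), Fam46c (0.984), Ermap, the Scianna blood group protein (0.982), and Acp5 (0.980). Ucp2, a mitochondrial carrier (0.979), the metallothionein gene Mt1 (0.978) and Xk, the Kell complex partner (0.973) followed. These are a description with no test, and libraries share their scaling.

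Members differed in the same measure. Trim10 (0.992) and Alas2 (0.998) followed the globin sum more closely than any of the candidates outside the list, as did 5 of the globins (all but Hbb-bs and Hbb-bt), which are themselves part of that sum. Slc25a38 (0.820) followed it less closely than 291 candidates, Ank1 (0.883) than 140, Tfrc (0.892) than 123 and Alad (0.898) than 112.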
